A study of Mus musculus with 9 samples.

Results

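The genes examined here encode the main conjugating enzymes of phase II metabolism: cytosolic glutathione S-transferases (Gst), UDP-glucuronosyltransferases (Ugt) and cytosolic sulfotransferases (Sult). They were chosen by symbol alone, as every gene whose name starts with Gst followed by a class letter (a, k, m, o, p, t or z) and a number, or with Ugt or Sult followed by a number. This gave 61 of the 24421 genes with raw counts, of which 21 were Gst, 21 Ugt and 19 Sult genes, and all 61 were also among the genes with normalized counts. Of these, 45 had at least 10 counts summed over the 9 libraries and were tested (19 Gst, 14 Ugt and 12 Sult), and 16 did not.

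RNA was sequenced from the main olfactory epithelium (MOE) of mice labelled C57BL/6 and aged 14 days after birth. The study describes its mouse lines together as of mixed background, and lists both male and female mice for this line. There were 3 libraries from wild-type mice (WT), 3 from heterozygous mice (het) and 3 from homozygous mice (homo). The heterozygous and homozygous mice carried a deletion of TAAR enhancer 2 on 1 or both copies, an element in the cluster of trace amine-associated receptor (Taar) genes. The allele was made by CRISPR-Cas9 editing of zygotes and kept as a single line, so other changes that this line may carry cannot be told apart from the deletion. No other allele or agent is named in the labels, and the WT mice carried none. By the study's description the libraries of a genotype came from separate mice, and the genotypes were littermates. The labels do not say what a replicate number stands for.

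Phase II enzymes join a small water-soluble group to a foreign compound, an odorant, a hormone or an oxidised lipid, which usually ends its activity and allows its export. Glutathione S-transferases attach glutathione, UDP-glucuronosyltransferases attach glucuronic acid from UDP-glucuronic acid, and sulfotransferases attach sulfate from 3'-phosphoadenosine-5'-phosphosulfate (PAPS). In the nose these enzymes are best known from the sustentacular cells, which support the olfactory sensory neurons (OSNs), and from the Bowman's glands. There they work beside a dense set of cytochrome P450 enzymes.

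Total counts ranged from 20527992 to 32262005 per library, and a count of 3, used as a floor, stood for 0.0928 to 0.147 CPM (counts divided by the TMM-corrected size of the library). This floor covers counting error only, since the reads carry no molecular identifiers and may repeat a molecule. The deleted element is not a gene and so has no count of its own. Taar6, which lies beside it, had 134, 214 and 170 counts in WT, 96, 117 and 132 in het and 14, 17 and 20 in homo. Markers of mature OSNs (8 genes, among them Omp and Gnal) summed to between 6657 and 7728 CPM, and sustentacular markers (10 genes) to between 7157 and 8892 CPM, so the labelled tissue was seen in every library. The 4 globin genes of the blood list were listed at 0 in all libraries, whereas its other genes, Alas2 and Slc4a1, had means of 23.1 and 45.2 CPM. The globin zeros thus cannot be read as an absence of blood. Xist, the RNA of the inactive X chromosome, had between 50117 and 99540 counts in 5 libraries and between 26 and 49 in the other 4 (WT replicate 3, het replicates 1 and 3 and homo replicate 1). The labels give no sex, and WT replicate 3 was the only WT library with low Xist. WT replicate 3 stood apart from the other libraries, as did the 3 libraries of replicate number 1. Most results that rest on them are given with and without them or by library.

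Most of the genes lie in clusters of near copies. In the annotation of build GRCm38 (GENCODE M21), the 7 Gstm genes lie on chromosome 3 from 107895821 to 108044894. The 8 Ugt1a genes lie on chromosome 1 from 88055388 to 88220002. Another cluster, on chromosome 5 from 86889767 to 87591594, holds 13 of the genes: the Ugt2a and Ugt2b genes followed by Sult1b1, Sult1d1 and Sult1e1. The 8 Sult2a genes lie on chromosome 7 from 13623967 to 14494230. Ugt1a genes have their own first exons and use common later ones, so that 50.3% to 60.6% of the exon bases of each belong to another Ugt1a gene as well. Ugt2a1 and Ugt2a2 likewise shared 98.8% and 94.5% of their exon bases with each other or with the overlapping model Gm43638. Only 3.0% and 6.4% of the 50-base windows in their exons occurred in no other gene. How the authors assigned such reads is not given in the sources used here, so how counts divide between Ugt1a genes, or between Ugt2a1 and Ugt2a2, is uncertain. The same holds to a lesser degree for Gsta2, Gstp1 and Gstm1, where 50.2%, 66.3% and 81.1% of windows occurred in no other gene.

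The start regions of 5 genes are printed because the results turn on these genes, although no result uses the sequences. They are the highest Gst, Ugt and Sult genes, a second Gstm gene and Ugt2a2. The second Gstm gene departed from the first in the opposite direction in WT replicate 3. Ugt2a2 has a first exon that sets it apart from Ugt2a1. The sequences are from RefSeq, build GRCm38.p6, and run 5′ to 3′ in the direction of the gene from 250 bases before a start to 50 bases after it. Capitals mark a match to TGACNNNGC, the core of the antioxidant response element bound by NRF2, or to TATAAA, the letters of the TATA box. Matches were marked on either strand (in Ugt2a2 the match reads TTTATA) and at any distance before or after the start. A marked stretch is therefore not shown to be a working element. Gstm1 has 2 listed starts, and the one with a match is shown.
Gstm1, chr3:108017769-108018068, minus strand: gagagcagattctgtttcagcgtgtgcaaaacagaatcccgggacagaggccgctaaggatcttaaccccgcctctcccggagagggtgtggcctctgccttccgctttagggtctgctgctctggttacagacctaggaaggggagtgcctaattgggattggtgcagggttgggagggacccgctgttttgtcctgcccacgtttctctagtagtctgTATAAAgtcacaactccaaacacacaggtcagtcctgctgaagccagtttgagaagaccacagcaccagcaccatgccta
Gstm5, chr3:107895604-107895903, plus strand: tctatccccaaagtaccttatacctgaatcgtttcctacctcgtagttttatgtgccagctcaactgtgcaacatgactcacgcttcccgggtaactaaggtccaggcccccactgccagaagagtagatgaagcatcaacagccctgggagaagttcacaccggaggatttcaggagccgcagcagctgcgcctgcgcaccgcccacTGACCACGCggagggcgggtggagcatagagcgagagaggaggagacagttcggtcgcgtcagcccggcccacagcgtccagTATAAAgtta
Ugt2a1, chr5:87490822-87491121, minus strand: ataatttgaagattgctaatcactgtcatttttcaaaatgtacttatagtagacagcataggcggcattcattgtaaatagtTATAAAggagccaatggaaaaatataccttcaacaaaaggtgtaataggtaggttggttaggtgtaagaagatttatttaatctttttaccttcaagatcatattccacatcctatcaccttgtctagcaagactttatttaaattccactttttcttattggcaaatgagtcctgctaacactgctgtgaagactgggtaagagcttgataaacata
Ugt2a2, chr5:87482209-87482508, minus strand: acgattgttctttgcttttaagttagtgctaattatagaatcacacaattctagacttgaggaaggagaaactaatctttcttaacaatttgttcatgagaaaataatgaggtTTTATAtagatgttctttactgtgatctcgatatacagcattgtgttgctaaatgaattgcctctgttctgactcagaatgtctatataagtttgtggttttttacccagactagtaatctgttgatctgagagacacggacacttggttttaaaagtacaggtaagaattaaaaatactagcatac
Sult1c1, chr17:53990582-53990881, minus strand: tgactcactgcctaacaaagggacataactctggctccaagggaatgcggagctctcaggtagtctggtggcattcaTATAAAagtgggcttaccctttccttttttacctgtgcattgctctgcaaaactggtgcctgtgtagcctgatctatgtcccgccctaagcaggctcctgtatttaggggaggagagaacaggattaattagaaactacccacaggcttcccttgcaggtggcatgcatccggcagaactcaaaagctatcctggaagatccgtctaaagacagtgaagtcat

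The Gstm5 window holds both letter patterns, at base 209 for TGACNNNGC and base 291 for TATAAA. The Gstm1, Ugt2a1, Ugt2a2 and Sult1c1 windows hold TATAAA only, at bases 221, 83, 114 and 78. Of the 61 genes, 53 had at least 1 RefSeq start region, 64 regions in all. TGACNNNGC was found in 3 of these 64, those of Gsta3, Gstm5 and Gstm7, against 4071 of all 32851 start regions of the same length (12.4%). TATAAA was found in 13 of the 64, against 4473 of 32851 (13.6%). Such matches describe letters in a window and say nothing of binding.

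A few enzymes carried most of the phase II transcripts of the MOE. Ugt2a1, Gstm1, Sult1c1 and Sult1d1 together took 72.6% of all counts in the 61 genes (30.3%, 17.3%, 14.6% and 10.4%), and the whole set took 0.338% to 0.421% of the counts of a library. By mean level over the 9 libraries, 7 genes reached 100 CPM, 23 reached 10 CPM and 33 reached 1 CPM. Levels of different genes are compared below per kilobase of exon, since a longer transcript collects more reads. Exon length here joins all annotated exons of a gene. It can exceed the length of the transcript expressed, so ranks per kilobase are approximate. In bulk tissue, fewer cells of a type and less RNA per cell cannot be told apart.

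Among the glutathione S-transferases, the mu class (Gstm) supplied 70.7% of the summed CPM and the alpha class (Gsta) 12.9%. Gstm1 was the highest gene of the whole set per length, with a mean of 456 CPM per kb. Its CPM was 888, 587 and 228 in WT, 851, 700 and 540 in het and 940, 601 and 711 in homo, so that WT replicate 3 lay far below all others. The next Gst genes per length were Gstm5 (84.4 CPM per kb), Gstm2 (79.7 CPM per kb) and Gsta4 (58.8 CPM per kb), whose enzyme is known for clearing the lipid peroxidation product 4-hydroxynonenal. Gsto1, Gsta3 and Gstz1 followed at 31.5, 20.4 and 16.2 CPM per kb. This order rests on annotated exon lengths of 2023, 4344 and 5088 bases. By CPM, Gsto1 was the lowest of them (63.8, against 88.5 and 82.6). Gstz1, also called maleylacetoacetate isomerase, acts in the breakdown of tyrosine. Gstm1 ran from 155 to 638 CPM per kb over the libraries and stayed above Gstm5, which ran from 64.8 to 142 CPM per kb. Gstm5 and Gstm2 overlapped, the latter at 48.6 to 90.1 CPM per kb.

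The glucuronosyltransferases were dominated by Ugt2a1, the olfactory enzyme that conjugates odorants. The Ugt2a genes supplied 97.4% of the summed CPM of the superfamily, the Ugt1a genes 1.47% and the Ugt2b genes 0.0406%. Ugt2a1 had 959, 1151 and 827 CPM in WT, 959, 1300 and 1253 in het and 1004, 1436 and 1313 in homo, a mean of 441 CPM per kb. Its range of 322 to 559 CPM per kb overlapped that of Gstm1. Ugt2a2 had a mean of 68.0 CPM (26.7 per kb), with the limit on read sharing given above. Ugt8a, which uses UDP-galactose to make the myelin lipid galactosylceramide rather than a conjugate, had 11.3 to 15.9 CPM. Ugt1a7c ran from 10.4 to 16.2 CPM, and Ugt1a6a, which conjugates small phenols, from 3.06 to 6.39 CPM. Ugt1a1, the bilirubin-conjugating enzyme, stayed between 0.272 and 1.09 CPM.

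The sulfotransferases were led by family 1, with 88.4% of the summed CPM. Sult1c1 had 441, 519 and 1031 CPM in WT, 429, 436 and 521 in het and 434, 562 and 529 in homo (350 CPM per kb on average). WT replicate 3 was the only library above 562 CPM. Sult1d1, which sulfates dopamine and other catechols, had 314, 377 and 406 CPM in WT, 322, 405 and 491 in het and 306, 479 and 397 in homo (158 CPM per kb). Here the 3 libraries of replicate number 1 were the lowest. Sult1e1, the estrogen sulfotransferase, followed with 64.5 CPM per kb. Sult4a1, a neuronal member with no well-defined substrate, had 43.6 CPM per kb and the narrowest range of the named genes, from 99.1 to 120 CPM. Sult6b1 had 9.99 CPM per kb and ran from 7.19 to 31.1 CPM.

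**Figure D1:**
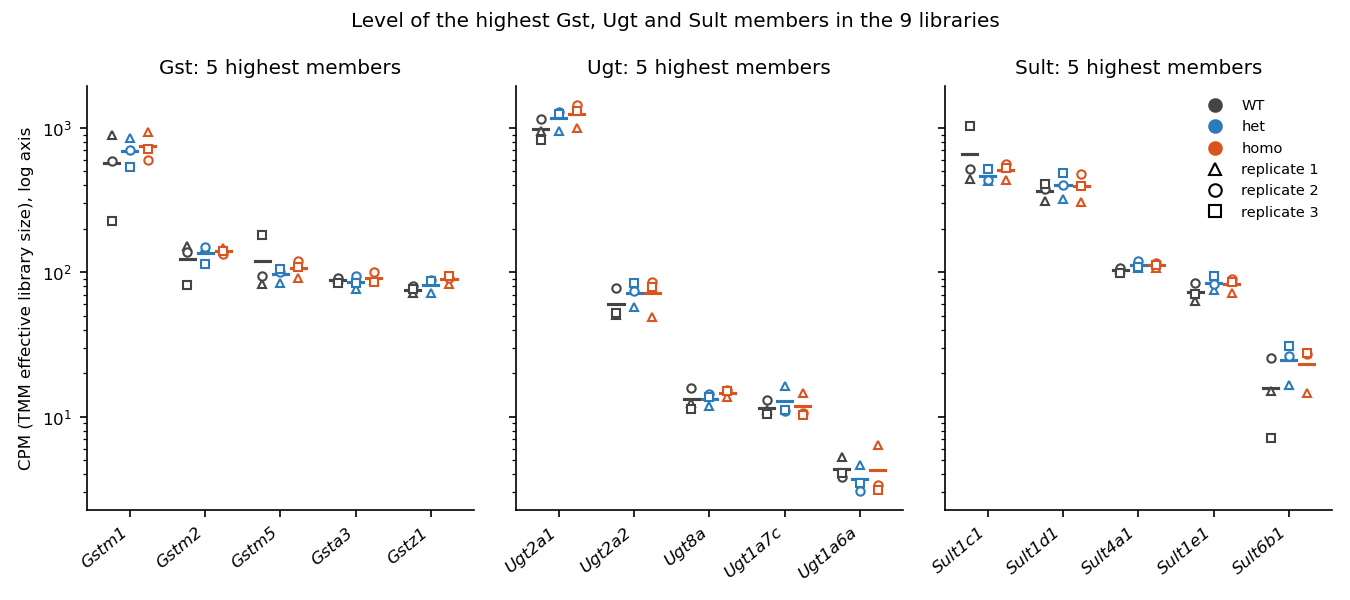
CPM on a log axis of the 5 highest Gst, Ugt and Sult genes in each of the 9 libraries, coloured by genotype, with the marker giving the replicate number and a bar for the mean of 3 libraries. Gstm1 and Sult6b1 in WT replicate 3 (228 and 7.19 CPM) lie below all other libraries, and Sult1c1 and Gstm5 (1031 and 182 CPM) above them.

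Levels differed widely within a cluster. In the chromosome 5 cluster, Ugt2a1, Sult1d1 and Sult1e1 had means of 1133, 389 and 80.2 CPM, while none of the 7 Ugt2b genes beside them reached 1 CPM. Ugt2b enzymes are known from the liver, where they conjugate steroids and bile acids. Ugt2b36 was the highest of them, with 41 counts in all libraries together. On chromosome 7, the 8 Sult2a genes, hydroxysteroid sulfotransferases of the liver, had between 0 and 16 counts each.

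At the low end, 28 of the 61 genes had a mean under 1 CPM. Sult3a1, Ugt3a1, Ugt2b37 and Sult2a7 had no count in any library, which at 3 counts allows a level of up to 0.147 CPM in the shallowest library. The other 12 untested genes were Ugt1a5, Ugt1a9, Ugt1a10, Ugt2b35, Ugt3a2, Gsta1, Gstt4, Sult2a3, Sult2a4, Sult2a5, Sult2a6 and Sult2a8, with 1 to 9 counts each. Some of the low genes share sequence with near copies, so their counts are uncertain: 9.5% of the 50-base windows of Gsta1, 37.9% of those of Sult2a2, 45.7% of those of Gstp2 and 58.3% of those of Ugt2b5 occurred in no other gene. Several low genes had most of their counts in 1 library. In het replicate 2, Ugt2b1 had 11 of its 13 counts, Ugt2b5 13 of 18, Sult2a8 7 of 9 and Ugt3a2 4 of 4. Ugt2b36 had its highest count there, 15 of 41. The same library held 672 counts of Alb (serum albumin), against 0 to 201 in the other 8 libraries. A list of 14 hepatocyte genes, written after these values were seen, summed to 55.4 CPM there and to between 4.81 and 17.0 CPM elsewhere. No gene of the list was at 0 in all libraries, and its part in the Ugt2b counts was not tested.

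The first comparison asked whether loss of both copies of TAAR enhancer 2 changed phase II genes. None of the 45 tested genes passed an adjusted p of 0.05 with a fold change over 1.5 in homo against WT (quasi-likelihood test of edgeR, Benjamini-Hochberg adjusted over all genes), where 4 of all 19775 tested genes did (0.0202%). DESeq2 and limma-voom also called 0. At an unadjusted p under 0.05 there were 2, Gstz1 and Gsto1, or 4.44% of the 45 against 3.45% of all tested genes.

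Gstz1 had 71.7, 80.0 and 76.1 CPM in WT and 83.2, 91.6 and 94.0 in homo, groups that did not overlap. Het, at 72.4, 87.9 and 86.7, overlapped both. Its log2 fold change was 0.24 (SE 0.10, adjusted p = 1 in edgeR). Gsto1, an omega-class enzyme that reduces dehydroascorbate and arsenicals, had 146, 48.6 and 90.2 CPM in WT and 70.8, 38.8 and 24.8 in homo. WT replicate 1 was the highest of all libraries for Gsto1 and the groups overlapped. Its log2 fold change was −1.08 (SE 0.46, adjusted p = 1 in edgeR), and −0.61 without WT replicate 1.

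None of the most abundant enzymes passed the test, and their 95% intervals included 0. In homo against WT, the log2 fold change was 0.35 for Ugt2a1 (95% interval −0.06 to 0.77), 0.40 for Gstm1 (−0.51 to 1.32), −0.38 for Sult1c1 (−1.02 to 0.25) and 0.11 for Sult1d1 (−0.34 to 0.55). These values depended on WT replicate 3. Without it, the log2 fold change was 0.24 for Ugt2a1, 0.017 for Gstm1, 0.18 for Sult1d1 and 0.073 for Sult1c1, the last with its sign turned. For Gstm2 and Ugt2a2 the log2 fold changes were 0.19 and 0.25, and without WT replicate 3 they were −0.048 and 0.15.

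In homo against WT, 29 of the 45 log2 fold changes were positive (64.4%, against 51.3% of all tested genes), with a median of 0.11 against 0.0041 over all tested genes. Without WT replicate 3, 44 of these genes were tested, of which 24 were positive (54.5%), with a median of 0.013 and none at an unadjusted p under 0.05 in edgeR (0 of 44). For 12 of the 45, the 95% interval lay wholly within a 1.5-fold change in either direction. For all tested genes that share was 50.2%. Sult4a1 and Gsta3 were among the tightest, with intervals from −0.07 to 0.29 and from −0.18 to 0.28. For the others, among them Gstm1 and Sult1c1, the interval reached past 1.5-fold.

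In het against WT, none of the 45 genes passed in edgeR, DESeq2 or limma-voom, and 0 of all tested genes did (0%). The count at an unadjusted p under 0.05 was also 0. The 2 smallest p-values belonged to Gsto1 (log2 fold change −0.87, SE 0.46, adjusted p = 1 in edgeR) and Sult1c1 (−0.52, SE 0.28, adjusted p = 1 in edgeR). Without WT replicate 3 the value of Sult1c1 was −0.062. The median was 0.11 against −0.0084 over all tested genes, with 28 of 45 positive (62.2%, against 47.7% of all tested genes). Within 1.5-fold lay 11 intervals, where 51.5% of all tested genes had such an interval. This tally was not repeated without WT replicate 3. This comparison shares its WT libraries with the one above.

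In homo against het, 0 of the 45 genes passed by any of these tests, where 1 of all tested genes did (0.00506%), and 0 had an unadjusted p under 0.05. The 2 smallest unadjusted p-values, 0.116 and 0.117 in edgeR, belonged to Ugt2b1 and Ugt2b5. These rest on the 11 and 13 counts in het replicate 2, with 0 counts in both other het libraries and at most 1 count in any homo library, so no fold is given. A test for any difference among the 3 genotypes called 0 of the 45 genes at an adjusted p under 0.05 in edgeR, DESeq2 or limma-voom. It called 1 of all tested genes (0.00506%), and 0 of the 45 had an unadjusted p under 0.05.

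**Figure D2:**
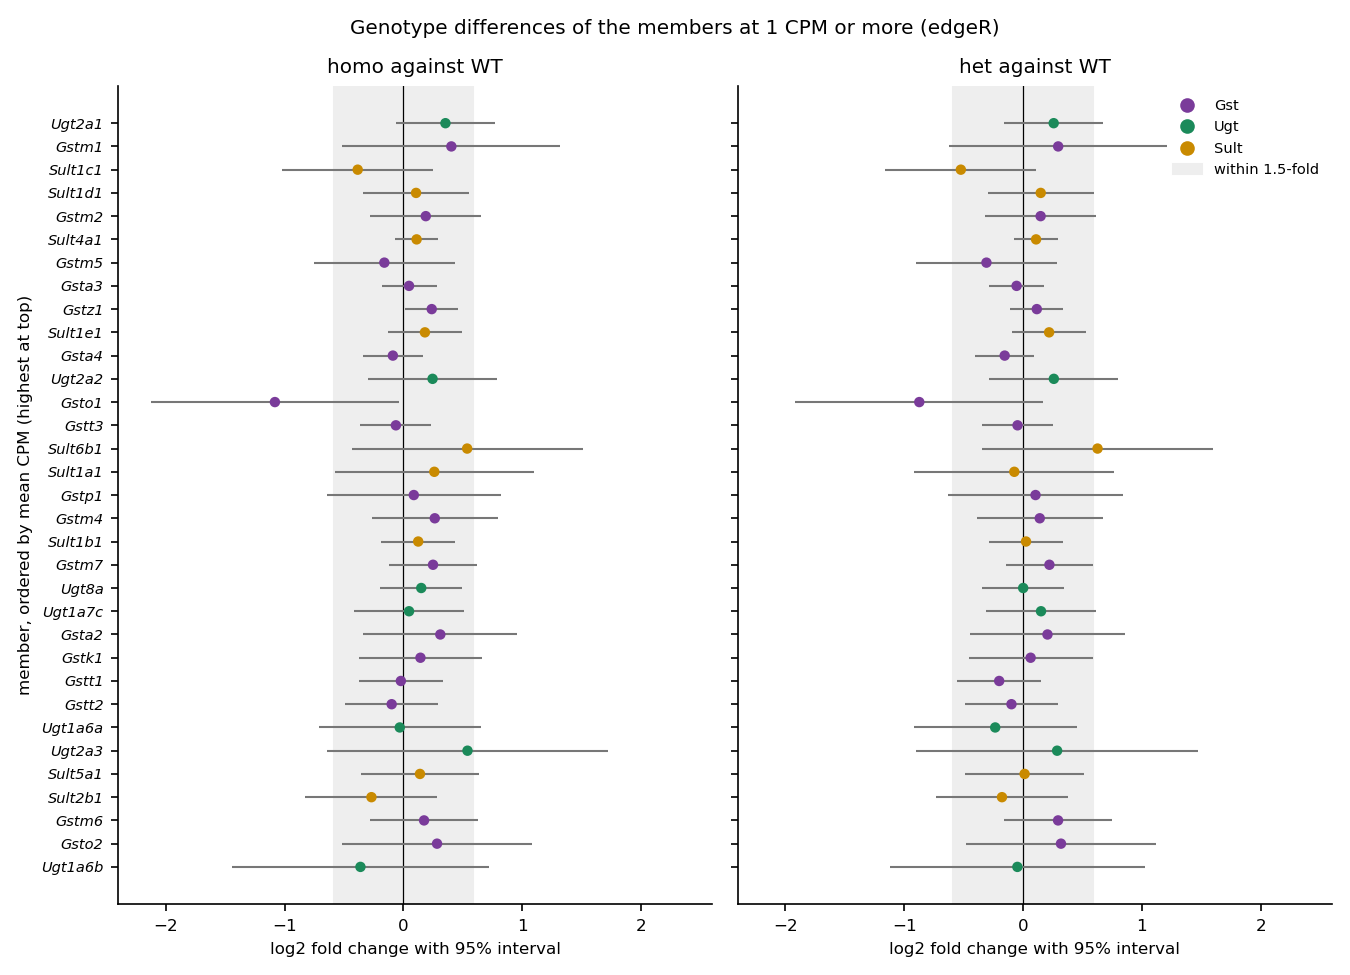
Log2 fold change (points, coloured by superfamily) with 95% interval (lines) of the 33 genes at a mean of 1 CPM or more in homo against WT (left) and het against WT (right), ordered by mean CPM. The grey band marks changes within 1.5-fold, and no gene passed the threshold in either comparison.

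Summed over each superfamily, the genotypes overlapped. Gst genes summed to 1267 ± 369 CPM in WT, compared with 1345 ± 164 in het and 1426 ± 180 in homo (mean ± SD, n = 3). Ugt genes summed to 1074 ± 180 CPM in WT, compared with 1280 ± 192 in het and 1360 ± 236 in homo. Sult genes summed to 1267 ± 343 CPM in WT, compared with 1134 ± 153 in het and 1170 ± 183 in homo.

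As a share of WT, homo thus stood at 113% for Gst, 127% for Ugt and 92.3% for Sult. Without WT replicate 3 these shares were 98.7%, 118% and 109%. The sum over all 61 genes was 3470 to 3679 CPM in WT, 3547 to 3891 CPM in het libraries and 3697 to 4171 CPM in homo libraries. Here WT and homo did not overlap, and WT replicate 3 was the lowest library. No test was made on these sums.

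**Figure D3:**
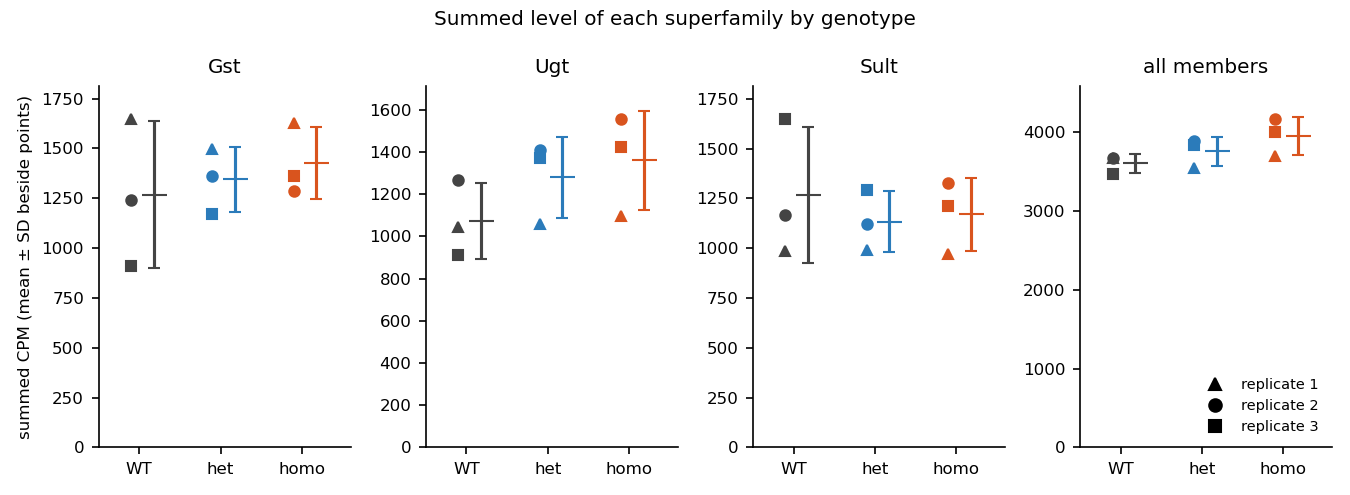
Summed CPM of the Gst, Ugt, Sult and all 61 genes in each library by genotype, with the replicate number as marker and the mean ± SD (n = 3) beside the points. WT replicate 3 is the lowest library for Gst (911 CPM) and Ugt (910 CPM) and the highest for Sult (1649 CPM).

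WT replicate 3 departed from the other libraries more in these genes than any other library did. Of the 33 genes with a mean of at least 1 CPM, 11 differed by more than 1.5-fold from the median of the other 8 libraries (33.3%). The other libraries gave 0 to 6 genes. Over all genes at this level the share was 14.5% in WT replicate 3. WT replicate 3 was the lowest of the 9 libraries for 12 genes and the highest for 3, together 45.5% of the 33. Over all genes the share at either extreme there was 39.9%, with 17.96% lowest and 21.95% highest. This library was thus often at an extreme well beyond the phase II genes. The genes named in this paragraph and the next were picked for these values.

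In WT replicate 3, 4 of the 7 Gstm genes were at their lowest and Gstm5 at its highest. Gstm1 had 228 CPM against 540 to 940 in the other 8 libraries, Gstm2 81.6 against 114 to 151, Gstm4 11.1 against 16.8 to 24.5 and Gstm7 11.2 against 14.6 to 18.3. Gstm5 had 182 CPM against 82.8 to 120. Neighbouring genes of 1 cluster thus departed in opposite directions in the same library. Sult6b1 (7.19 CPM against 14.6 to 31.1) and Gsta2 (5.75 against 8.18 to 13.5) were also lowest there. Sult1c1 was highest, with 1031 CPM against 429 to 562.

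Other gene groups moved with this library. Immune markers (6 genes, among them Lyz2 and S100a8) summed to 1188 CPM in WT replicate 3 and to between 126 and 384 CPM in the others. Cytochrome P450 enzymes and other phase I genes of the nasal mucosa (16 genes) summed to 6507 CPM against 8271 to 9815, with Cyp2g1 at 1117 CPM against 1830 to 2342. Sustentacular markers, which share Cyp2a5 and Cyp2g1 with that list, summed to 8269 CPM there and to between 7157 and 8892 CPM in the other libraries. Of these, 1674 CPM came from Reg3g, an antimicrobial lectin, which had 195 to 808 CPM elsewhere. With Reg3g left out after its values were seen, the 9 other markers summed to 6594 CPM in WT replicate 3, below the 6860 to 8442 CPM of the others. Their directions were mixed. Cyp2g1 and Ermn (89.4 CPM against 110 to 129) were at their lowest there. Krt8 (386 CPM against 189 to 247), Krt18 (445 against 210 to 282) and Cbr2 (986 against 781 to 968) were at their highest. Cyp2a5, Sox2, Notch2 and Muc2 lay within the range of the others. Bowman's gland markers (6 genes) summed to 3617 CPM there, within the 2541 to 11395 CPM of the others, but not all moved alike. The mucin gene Muc5b was at 2401 CPM against 433 to 675, whereas Bpifb9a was at 220 CPM against 307 to 2192 and Bpifb9b at 793 CPM against 1474 to 9050. The part of these groups in the departures was not tested.

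**Figure D4:**
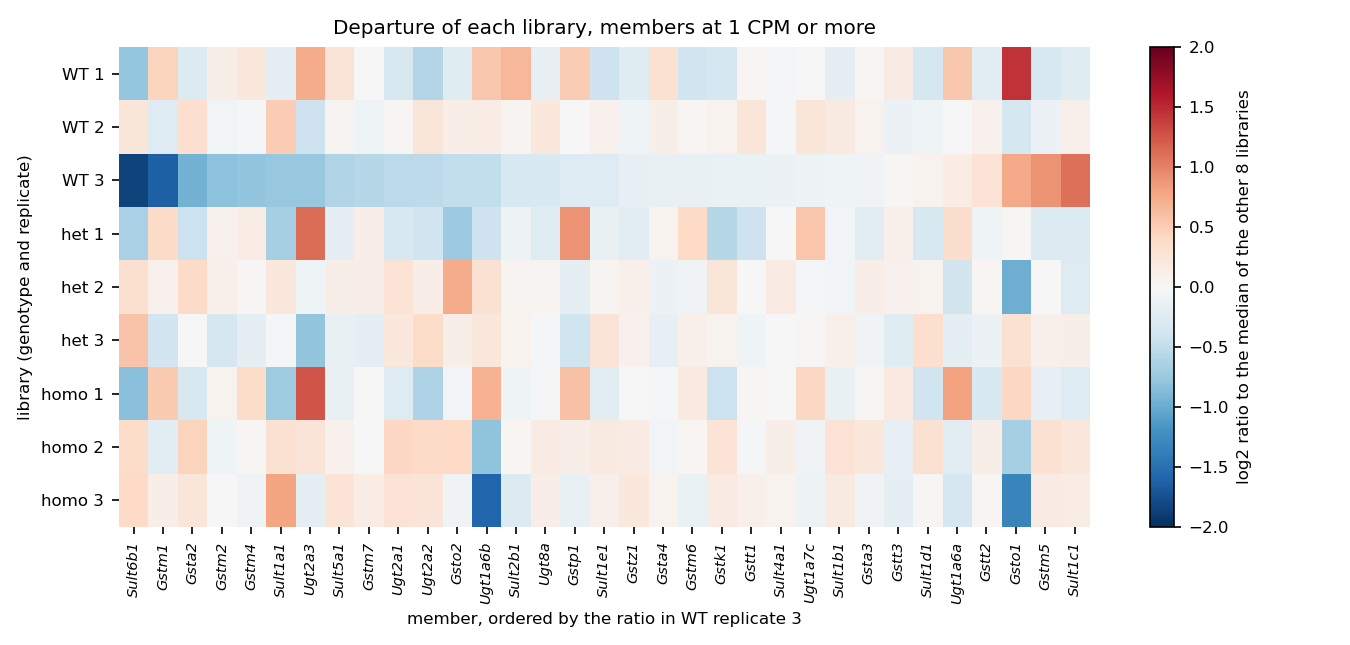
Log2 ratio of each library to the median of the other 8 libraries for the 33 genes at 1 CPM or more, with the genes ordered by their ratio in WT replicate 3 and the colour scale limited to a log2 ratio of 2 either way. WT replicate 3 runs from the deepest blue at Sult6b1 and Gstm1 to red at Sult1c1, and the 3 libraries of replicate number 1 resemble each other at Ugt2a3, Gstp1 and Sult6b1.

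Replicate number 1, whose meaning the labels do not give, differed from numbers 2 and 3 across genotypes. The comparison was made because earlier results of these data had shown the libraries of number 1 apart. Its p-values therefore describe a grouping taken from these same counts and do not test it independently. In a fit with genotype as a term, 3 of the 45 genes were higher in number 1 (6.67%, against 5.43% of all tested genes): Ugt2a3, Gstp1 and Ugt1a6a. None was lower in edgeR or limma-voom, where 3.52% of all tested genes were, and DESeq2 called 1, Sult1a1. At an unadjusted p under 0.05, 8 genes were higher and 9 lower, or 37.8% of the 45 against 42.6% of all tested genes. The share of phase II genes that differed was thus close to the share of all genes.

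Ugt2a3, a low relative of Ugt2a1, had 5.25, 6.86 and 7.53 CPM in number 1 (WT, het and homo), 2.63, 3.21 and 3.77 in number 2 and 2.06, 2.02 and 3.09 in number 3. All 3 libraries of number 1 lay above the other 6. The log2 fold change was 1.23 (SE 0.17, adjusted p = 0.00122 in edgeR).

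Gstp1, the pi-class enzyme, had 23.6, 30.9 and 24.8 CPM in number 1, 17.1, 15.3 and 18.1 in number 2 and 14.7, 13.4 and 15.9 in number 3, again without overlap. The log2 fold change was 0.75 (SE 0.12, adjusted p = 0.00243 in edgeR). It was 0.56, under the 1.5-fold limit, without het replicate 1. Its near copy Gstp2 had 1 to 7 counts per library.

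Ugt1a6a had 5.30, 4.64 and 6.39 CPM in number 1 against 3.06 to 4.05 CPM in the other 6 libraries, with a log2 fold change of 0.64 (SE 0.14, adjusted p = 0.00874 in edgeR). Without homo replicate 1 the value was 0.48 (adjusted p = 0.0692 in edgeR), and the call was lost. As noted for the Ugt1a cluster, its later exons are common to the other Ugt1a genes. Ugt1a7c, with which it shares the most sequence, had 11.1, 16.2 and 14.6 CPM in number 1 and 10.4 to 13.0 CPM otherwise, which overlapped.

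With no limit on the fold, 5 genes were lower in number 1 (11.1%, against 14.7% of all tested genes), and 3 were higher (against 17% of all tested genes). The lower ones were Ugt2a2 (log2 fold change −0.52, adjusted p = 0.0137), Gstk1 (−0.51, adjusted p = 0.00894), Sult1d1 (−0.44, adjusted p = 0.00671), Sult1e1 (−0.27, adjusted p = 0.0200) and Gstz1 (−0.18, adjusted p = 0.0159), all from edgeR. Sult1d1 had 306 to 322 CPM in number 1 and 377 to 491 CPM in the other 6 libraries. Gstk1, a mitochondrial and peroxisomal enzyme, had 6.81 to 7.90 CPM in number 1 and 9.14 to 11.7 CPM in the others. Both were without overlap, whereas Ugt2a2, Sult1e1 and Gstz1 overlapped.

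WT replicate 3 is one of the 6 libraries of the other numbers. Without it, 4 genes were higher in number 1 and 3 lower by the same rule (against 6.53% and 4.79% of all tested genes). Gsto1 joined the higher genes, with a log2 fold change of 0.97 (SE 0.25, adjusted p = 0.0102 in edgeR). The lower genes were then Sult6b1 (−0.82, adjusted p = 2.1e-05), Sult1a1 (−0.80, adjusted p = 0.00048) and Ugt2a2 (−0.60, adjusted p = 6.03e-05), all from edgeR. Sult6b1 had 14.6 to 16.6 CPM in number 1 and 25.4 to 31.1 CPM in the 5 other libraries left. Abundant genes also differed there, by less than 1.5-fold. Gstm1, Ugt2a1 and Sult1c1 had log2 fold changes of 0.52, −0.38 and −0.24 (adjusted p = 0.00057, 0.00087 and 0.0165 in edgeR). Gstm1 had 851 to 940 CPM in number 1 against 540 to 711. Ugt2a1 had 959 to 1004 CPM against 1151 to 1436. With WT replicate 3 kept, none of them had an adjusted p under 0.05. No share of all genes was worked out for this looser rule.

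Xist was low in 2 of the 3 libraries of number 1 and in 2 of the other 6. With its level as a covariate, an alternative added after seeing the data, 4 genes of the set were higher (Gstp1, Gsto1, Gstm1 and Ugt2a3) and 1 lower (Sult1c1). The log2 fold change of Ugt1a6a was then 0.56, under the 1.5-fold limit. Over all tested genes, the number lower in number 1 went from 697 to 1221 and the number higher from 1074 to 1157. The part of Xist, or of what goes with it, in the results was not tested further.

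Markers of several cell types moved with replicate number 1. Respiratory ciliated cell markers (6 genes, led by Foxj1) summed to 505 to 562 CPM in number 1 and to 263 to 381 CPM otherwise. Basal and progenitor cell markers (6 genes) summed to 234 to 289 CPM against 135 to 146. Bone and cartilage genes (6 genes) summed to 5908 to 6399 CPM against 3271 to 4201, most of it from Col1a1 (mean 3524 CPM). Of the ciliated, basal and bone genes, only Tekt1 and Bglap had negative log2 fold changes (−0.16 and −0.45). Immature OSN markers (5 genes) summed to 1569 to 1582 CPM against 1113 to 1410. The sum of sustentacular markers was 7157 to 7326 CPM against 8047 to 8892, led by Cyp2a5 (log2 fold change −0.30, adjusted p = 0.0574 in edgeR). Of its 10 genes, however, 6 had a positive and 4 a negative log2 fold change, with a median of 0.0043, and the only one called, Sox2, was higher in number 1 (0.76, adjusted p = 0.000119 in edgeR). Immune markers summed to 126 to 151 CPM against 217 to 1188. No gene of these lists was at 0 in all libraries. The part of these cell types in the differences of Ugt2a3, Gstp1 and the other genes was not tested.

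**Figure D5:**
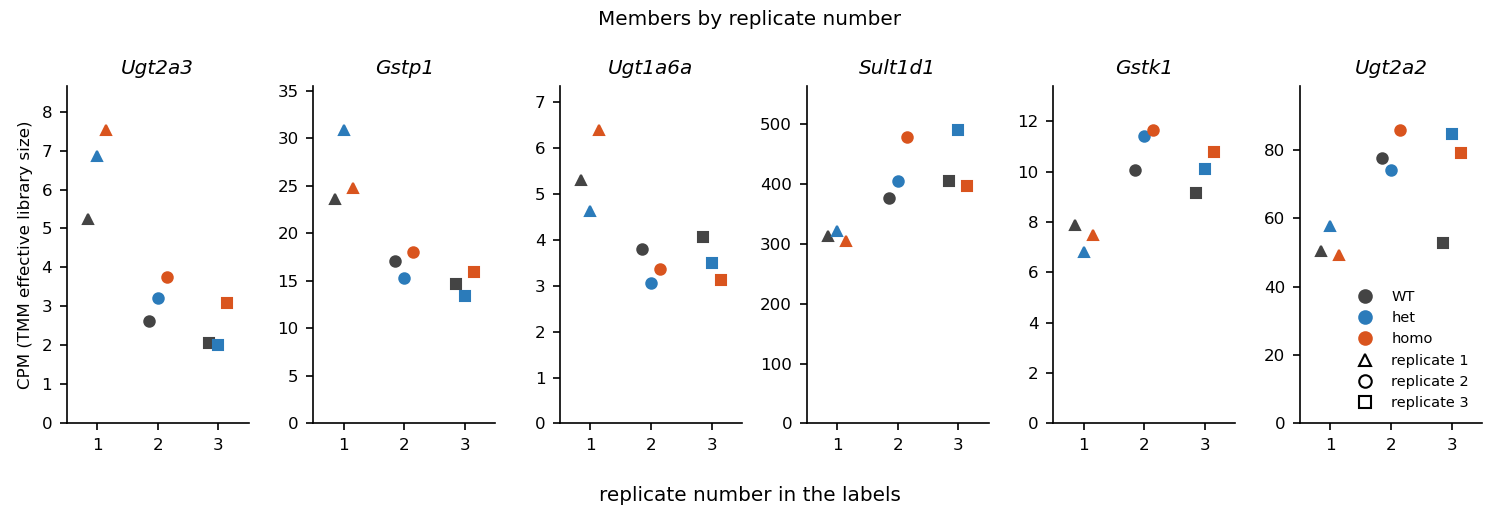
CPM of Ugt2a3, Gstp1, Ugt1a6a, Sult1d1, Gstk1 and Ugt2a2 in the 9 libraries by replicate number, coloured by genotype, on axes that start at 0. In number 1, Ugt2a3, Gstp1 and Ugt1a6a lie above and Sult1d1 and Gstk1 below all other libraries, while WT replicate 3 overlaps number 1 for Ugt2a2.

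The genes that supply and follow conjugation were examined as 8 lists with 89 genes in all, of which 87 were tested. No gene of these lists was called in homo against WT or in het against WT in edgeR. In replicate number 1, 3 of the 87 were higher and 4 lower by the same rule, against 5.43% and 3.52% of all tested genes. The share of these genes that was called was thus close to the share of all genes.

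Glutathione supply was represented by 12 genes of synthesis and recycling, all tested. Gclc, the catalytic subunit of the rate-limiting step, had a mean of 167 CPM, Ggt7 187 CPM and G6pdx 91.2 CPM. Only Ggt6, at a mean of 0.694 CPM, was called in number 1 (log2 fold change 1.12, adjusted p = 0.00984 in edgeR). The median log2 fold change of the list in homo against WT was −0.07.

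UDP-glucuronic acid supply, with 6 genes, was led by Ugdh (230 CPM), which oxidises UDP-glucose, Ugp2 (151 CPM), which makes it, and Gusb (104 CPM), which cleaves glucuronides. None of the 6 was called in number 1. The median in homo against WT was 0.09. In PAPS supply, 7 of 8 genes were tested, led by the PAPS synthase Papss2 (231 CPM), the phosphatase Impad1 (113 CPM) and Papss1 (74.0 CPM). None was called in number 1, and the list sum stayed between 549 and 590 CPM over the 9 libraries.

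Among 10 other glutathione transferases, Mgst1 (143 CPM) and Mgst3 (121 CPM), which are membrane-bound, and Gdap1 (105 CPM) were the highest. None was called in number 1. Among 12 other conjugating enzymes, mostly methyltransferases, 11 were tested, and Inmt (178 CPM) led. Inmt, which methylates indole amines, was lower in number 1 (log2 fold change −0.82, adjusted p = 0.00597 in edgeR). It had 109, 115 and 128 CPM in number 1 and 172 to 297 CPM in the other 6 libraries. Hnmt, which methylates histamine, and Nnmt, which methylates nicotinamide, were also lower (log2 fold changes −1.12 and −0.78, adjusted p = 0.0112 and 0.0248 in edgeR).

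Of 9 exporters of conjugates, Abcc5 (257 CPM), Abcc1 (196 CPM) and Abcc4 (150 CPM) were the highest. Abcg2, which exports sulfates among other compounds, was lower in number 1 (log2 fold change −0.79, SE 0.08, adjusted p = 0.00038 in edgeR). Of 16 xenobiotic sensors and targets of NRF2, Txnrd1 (206 CPM), Nfe2l2 (191 CPM), which encodes NRF2, and Nqo1 (148 CPM) led. Aldh3a1 was the only one called in number 1, where it was higher (log2 fold change 0.91, adjusted p = 0.0240 in edgeR).

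Of the 16 phase I genes of the nasal mucosa, Cyp2a5 (3494 CPM), Cyp2g1 (1958 CPM) and Cyp2f2 (999 CPM) led, 3 cytochrome P450 enzymes of olfactory and airway mucosa. Their reductase partner Por was higher in number 1 (log2 fold change 0.64, adjusted p = 0.000432 in edgeR), at 700, 735 and 769 CPM against 421 to 505 CPM. The median of the list in homo against WT was 0.23, with no gene called.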

How the data were processed

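Libraries were made from polyA-selected RNA with a strand-specific kit. According to the processing notes and the study's methods, reads were trimmed with Trimmomatic 0.36, mapped to mm10 (GRCm38) with HISAT2 2.1.0 and counted with featureCounts (Subread 1.6.2). The release of the annotation, its strand setting and the handling of multi-mapping reads are not given in the sources used here. The authors deposited raw counts per gene symbol and a signal of normalized counts, each raw count divided by 1 DESeq2 1.20.0 size factor per library. The ratio was checked to be constant within each library, with factors from 0.806 to 1.28, and only the raw counts were tested.

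Genes whose counts over the 9 libraries came to 10 or more were fitted with edgeR 4.0.16 in R 4.3.3 (TMM, quasi-likelihood F-test, two-sided, genotype as the only term, 1 spread for all libraries), with adjustment over 19775 genes. A gene was called at an adjusted p under 0.05 and a fold over 1.5. The common biological coefficient of variation was 23.3%. Replicate number 1 was compared with numbers 2 and 3 with genotype in the fit. SE and 95% intervals came from the fitted model. It was also run on simulated counts, with the same spread for every gene and no outlying library. That run cannot show how the intervals hold for genes of wider spread or beside WT replicate 3. DESeq2 1.42.0 and limma-voom (limma 3.58.1) were alternatives, with other scalings, filters, left-out libraries and a replicate block. Levels are CPM on TMM effective library sizes. Positions and exon lengths were from GENCODE M21.

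Genotypes share replicate numbers that the labels do not explain. Over 17378 genes, the deviations of same-numbered libraries from their group means (numbers 1, 2 and 3 in turn) correlated as follows. For WT with het the values were 0.65, 0.43 and 0.56. For het with homo they were 0.78, 0.34 and 0.19. For WT with homo they were 0.52, 0.29 and −0.072. Across numbers, het replicate 2 with homo replicate 3 gave 0.53 and het replicate 3 with homo replicate 2 gave 0.49, above the same-numbered values, so between het and homo these 2 numbers do not single out a partner. WT replicate 2 with homo replicate 3 gave 0.50, also above the same-numbered values of WT with homo for these numbers. A limit of 0.1 on every same-numbered pair was met for WT with het and het with homo. It was not met for WT with homo. These values do not settle whether a number joins libraries across the genotypes. The genotype tests reported had genotype as the only term and used no pairing, so differences between replicate numbers stayed in their spread. A replicate block was fitted only as an alternative.

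The genes and lists were chosen with earlier results of these data known. Named were called genes (up to 10 a direction), the 5 highest genes of each superfamily by CPM, the 2 smallest p-values of each genotype comparison, untested genes, and, per list, the 3 highest and the called genes. Other genes were named after their values were seen: Gsta4, Gsta2, Gstm4, Gstm7, Gstk1, Gstt3, Sult1a1, Ugt1a1, Gstp2 and the Ugt2b and Sult2a genes. A gene that the rule would name is not reported here.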

Additional observations from a re-analysis of the deposited data

How the results depend on the processing

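Of 504 recomputed values of 33 results, 489 were classed as unchanged. A fold change was so classed if it kept its sign and call. For a summed level, the move had to be smaller than the SD of the WT libraries. A count of genes could change by up to 1.5-fold, and the genes behind it could differ. No gene of the set was called in homo against WT, het against WT, homo against het or any genotype under any alternative run: DESeq2 size factors, no count filter, filterByExpr, DESeq2, limma-voom, no fold limit (or, for any genotype, a fold limit), a replicate block, each library left out, and an Xist covariate. The replicate block changed none of these calls and gave 18 intervals within 1.5-fold in homo against WT in place of 12. The number of genes higher in replicate number 1 stayed at 2 to 4. The number lower, 0 in the fit reported, was 1 with DESeq2, 5 with no fold limit, 1 with the level of Xist as a covariate, which was added after seeing the data, and 0 to 3 with single libraries left out (2 without WT replicate 1, 3 without WT replicate 3, 1 without het replicate 3). The cause was not tested.

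In homo against WT, the log2 fold change ran, with single libraries left out, from −0.048 to 0.36 for Gstm2, from −0.59 to 0.073 for Sult1c1 and from −0.065 to 0.26 for Sult1d1. Their signs turned without WT replicate 3 (Gstm2 and Sult1c1) or without homo replicate 2 (Sult1d1). Without the highest gene of each superfamily, homo stood at 96.5% of WT for Gst, 115% for Ugt and 110% for Sult, within 1 SD of the WT libraries of the values with it. For the 28 genes under 1 CPM, counts near the floor limit what could be seen.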
